A study of Mus musculus with 6 samples.

Results

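The glutathione S-transferases described here are 10 genes of mouse embryonic fibroblasts: Gsta4, Gstm1, Gstm2, Gstm5, Gstp1, Gstt1, Gstt3, Gsto1, Gstk1 and Mgst1. They were chosen by symbol, and all 10 were found among the 43346 genes of the count table. The cells were primary fibroblasts of the C57BL/6 strain at passage 9, in a medium that, per the labels, contained 2-mercaptoethanol. Each library came from cells exposed for 24 h either to the solvent DMSO or to 3 µM erastin, with 3 libraries per treatment. Erastin blocks the exchanger that imports cystine, the source of cysteine for glutathione synthesis, and is used to induce ferroptosis. The labels state that the experiment was done in triplicate but not whether the replicates were separate cultures or embryos, so p-values measure only the spread between these libraries.

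Glutathione S-transferases join the thiol of glutathione to reactive electrophiles, among them aldehydes released when membrane lipids are oxidized. The cytosolic enzymes fall into classes named by Greek letters. Kappa is a separate class found in mitochondria and peroxisomes, and Mgst1 belongs to an unrelated family of membrane proteins (MAPEG). The conjugates are pumped out of the cell and trimmed to mercapturic acids. Many transferase genes are known targets of NRF2, a transcription factor that binds antioxidant response elements (AREs).

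With erastin, 1 of the 10 genes rose and 4 fell in edgeR's quasi-likelihood test, with Benjamini-Hochberg adjusted p-values over 14000 genes and a threshold of 0.05. Gsta4, which encodes the alpha-class enzyme for lipid aldehydes, rose 1.65-fold. Gstt1 of the theta class fell 4.46-fold. Gstm2 of the mu class, Mgst1 and Gstp1 of the pi class fell by 0.61, 0.46 and 0.37 on the log2 scale. Of all genes tested, 21.6% rose and 21.5% fell, 43.1% in all, so 5 of 10 is near the share of the whole transcriptome. The median log2 fold change of the 10 genes was -0.35, against -0.0014 over all genes tested. Every one of the 10 passed the filter on low counts; the lowest count of any was 15 reads, for Gstt1 in erastin replicate 3. In bulk RNA, fewer cells of a type and less RNA per cell cannot be told apart.

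**Figure D1:**
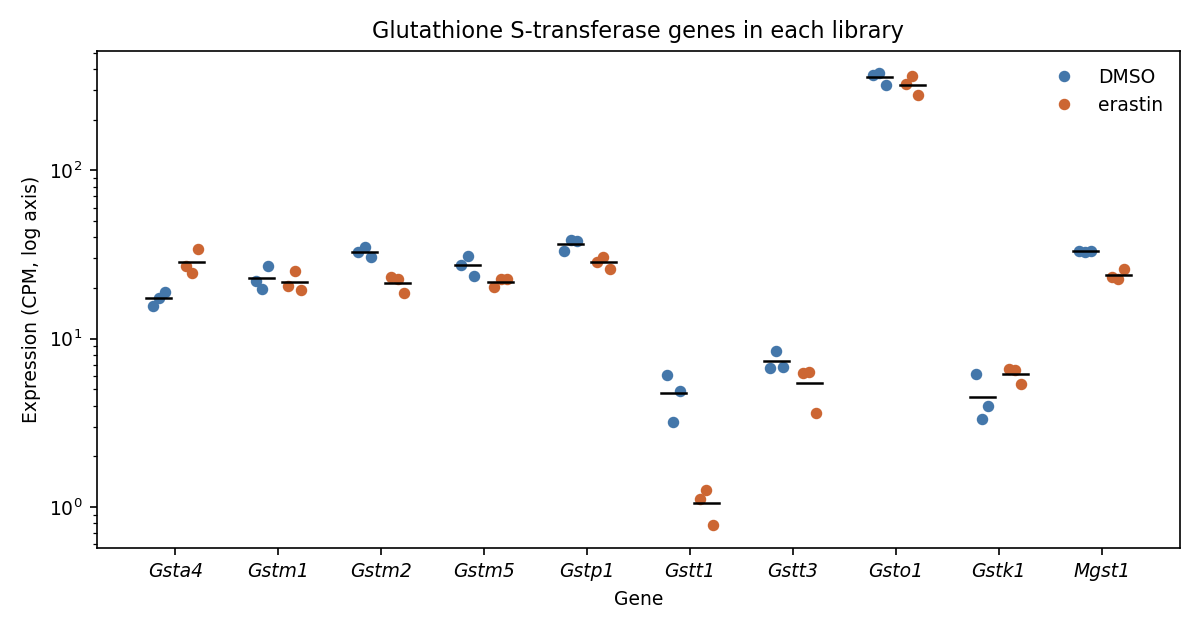
Expression of the 10 transferase genes in CPM, which are reads scaled by library size (log axis), with 1 point per library (3 DMSO, 3 erastin) and a line at each group mean. Gsto1 lies between 279 and 377 CPM, Gsta4 is higher in all 3 erastin libraries than in any DMSO library, and Gstt1 lies between 0.778 and 1.26 CPM with erastin.

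Total counts ran from 13333911 to 20509970 per library, and 3 counts, taken as the detection floor, were worth 0.146 to 0.225 CPM; this covers counting error only. The 12 fibroblast marker genes summed to 35837 to 38833 CPM in DMSO and 25709 to 27154 CPM in erastin libraries, and 9 of the 12 fell. The 6 endothelial markers summed to 5.16 to 7.71 and 14.1 to 17.6 CPM, with Kdr and Tek the only 2 that passed, both higher, and Pecam1 and Cdh5 at means of at most 0.372 CPM in either group. The 7 macrophage markers summed to 23.6 to 46.4 and 28.2 to 58.7 CPM, and 0 of them passed by edgeR or DESeq2 (1, Lyz2, was higher at an unadjusted edgeR p under 0.05). The 6 epithelial markers summed to at most 3.25 CPM. The 6 hepatocyte markers summed to at most 0.359 CPM, with Afp and Serpina1a at 0 reads. The 6 muscle markers summed to 86.9 to 107 and 82.1 to 90.6 CPM, nearly all from Des, which rose, and Acta1, which fell. The part of these shifts in the transferase results was not tested.

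The alpha-class gene Gsta4 (ENSMUSG00000032348.5) lies on the plus strand of GRCm38 chromosome 9, chr9:78182774-78209349. Its enzyme is known for conjugating 4-hydroxynonenal, an aldehyde formed by lipid peroxidation. Gsta4 stood at 15.6, 17.4 and 19.0 CPM in DMSO replicates 1 to 3 and at 26.9, 24.4 and 34.3 CPM in erastin replicates 1 to 3. All erastin libraries were above all DMSO libraries, and erastin replicate 3 was the highest. The means were 17.3 ± 1.72 and 28.5 ± 5.13 CPM (SD, n = 3 each; log2 fold change 0.72, SE 0.15, 95% confidence interval 0.39 to 1.05, edgeR adjusted p = 0.00144).

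The remaining alpha-class genes in the table, Gsta1, Gsta2 and Gsta3, had few counted reads and are named after their values were seen. The sequence they share with other genes was not examined, and how reads matching several genes were handled is not given. Gsta1 had 0 reads in every DMSO library and 44, 36 and 5 reads in erastin replicates 1, 2 and 3. It fell below the count filter and was not tested. Pooled over libraries, its erastin level was 21.8-fold the level that 3 counts over the DMSO group, taken as the floor, would give. This value covers counting error in DMSO only. It leaves out counting error in the erastin reads and the spread between libraries, so it is not a lower bound. Gsta1 stood at 2.05 and 2.16 CPM in erastin replicates 1 and 2 but at 0.259 CPM in erastin replicate 3. Gsta2, a close paralog, had 1 read in all DMSO libraries together and 1, 8 and 2 reads with erastin. Gsta3 had 3, 2 and 0 reads in DMSO and 13, 2 and 11 with erastin.

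The mu-class genes sit in a cluster on chromosome 3, where Gstm1 (ENSMUSG00000058135.8, chr3:108012255-108017973, minus strand), Gstm2 (ENSMUSG00000040562.8, chr3:107981702-107986453, minus strand) and Gstm5 (ENSMUSG00000004032.6, chr3:107895821-107898686, plus strand) encode cytosolic transferases for aromatic and other electrophiles. Gstm2 was 32.8, 35.1 and 30.5 CPM in DMSO and 23.2, 22.6 and 18.7 CPM in erastin libraries. The groups did not overlap, and erastin replicate 3 was the lowest library. The means were 32.8 ± 2.32 and 21.5 ± 2.47 CPM (SD, n = 3 each; log2 fold change -0.61, SE 0.13, 95% confidence interval -0.89 to -0.34, edgeR adjusted p = 0.00135).

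Gstm1 showed no such separation, at 21.8, 19.7 and 27.0 CPM in DMSO and 20.5, 25.3 and 19.3 CPM in erastin libraries. Its log2 fold change of -0.072 (95% confidence interval -0.41 to 0.26, edgeR adjusted p = 0.746) did not pass, and its sign turned to 0.065 without DMSO replicate 3 and to 0.0051 without erastin replicate 3. Gstm5 was 27.4, 31.2 and 23.5 CPM in DMSO and 20.2, 22.5 and 22.6 CPM in erastin libraries, lower in all 3 but not past the threshold (log2 fold change -0.33, 95% confidence interval -0.63 to -0.042, edgeR adjusted p = 0.0615). Without DMSO replicate 3 it passed, at -0.43 (edgeR adjusted p = 0.0189).

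The ratio of Gstm2 to Gstm1 reads, which does not depend on library scaling, was 1.502, 1.79 and 1.13 in DMSO and 1.13, 0.893 and 0.965 in erastin libraries. The groups overlapped, with erastin replicate 1 just above DMSO replicate 3. An exact two-sided permutation test gave p = 0.2 for this ratio, 0.5 for Gstm5 over Gstm1 and 0.1 for Gstt1 over Gstt3 (0.3, 0.5 and 0.3 after Benjamini-Hochberg adjustment over the 3 ratios, which were chosen after the data were seen). With 3 libraries against 3 the smallest p is 0.1, so this test could not pass the threshold, and whether these genes differ in response is not settled by it.

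The theta-class genes Gstt1 (ENSMUSG00000001663.6, chr10:75783813-75798584) and Gstt3 (ENSMUSG00000001665.6, chr10:75774115-75781414) are neighbours on the minus strand of chromosome 10. Theta enzymes act on small halogenated compounds and organic hydroperoxides. Gstt1 was 6.04, 3.22 and 4.90 CPM in DMSO and 1.12, 1.26 and 0.778 CPM in erastin libraries, or 80, 58 and 63 reads against 24, 21 and 15. The groups did not overlap, and the lowest DMSO library was replicate 2. The means were 4.72 ± 1.42 and 1.05 ± 0.247 CPM (SD, n = 3 each; log2 fold change -2.16, SE 0.42, 95% confidence interval -3.06 to -1.26, edgeR adjusted p = 0.000819).

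Gstt3 was 6.72, 8.48 and 6.77 CPM in DMSO and 6.29, 6.35 and 3.63 CPM in erastin libraries. Only erastin replicate 3 lay well below the DMSO libraries, and the difference did not pass (log2 fold change -0.44, 95% confidence interval -1.02 to 0.14, edgeR adjusted p = 0.215). The ratio of Gstt1 to Gstt3 reads was 0.899, 0.379 and 0.724 in DMSO and 0.178, 0.198 and 0.214 in erastin libraries, with no overlap. A theta gene outside the 10, Gstt2, chosen after its values were seen, had 11, 50 and 12 reads in DMSO and 53, 50 and 121 reads in erastin libraries. Its log2 fold change of 1.33 (SE 0.52, edgeR adjusted p = 0.052) did not pass, and without DMSO replicate 2 it was 2.14 (edgeR adjusted p = 0.00969).

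The pi-class gene Gstp1 (ENSMUSG00000060803.5, chr19:4035407-4037985, minus strand) encodes a transferase that is abundant in many cultured cells. Gstp1 was 32.9, 38.5 and 38.1 CPM in DMSO and 28.7, 30.4 and 25.9 CPM in erastin libraries. Erastin libraries were all lower, by a small margin. The means were 36.5 ± 3.12 and 28.3 ± 2.29 CPM (SD, n = 3 each; log2 fold change -0.37, SE 0.12, 95% confidence interval -0.62 to -0.12, edgeR adjusted p = 0.0196). The call was lost without DMSO replicate 2, erastin replicate 1 or erastin replicate 3 (edgeR adjusted p = 0.0812, 0.0543 and 0.0655) and after an offset for GC content and transcript length (log2 fold change -0.23, edgeR adjusted p = 0.15).

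Mgst1 (ENSMUSG00000008540.7, chr6:138140316-138156755, plus strand) encodes a membrane-bound transferase that can also reduce lipid hydroperoxides. Mgst1 was 33.2, 32.9 and 33.1 CPM in DMSO and 23.4, 22.4 and 26.0 CPM in erastin libraries. The DMSO libraries were nearly identical, and each erastin library was lower. The means were 33.1 ± 0.188 and 24.0 ± 1.86 CPM (SD, n = 3 each; log2 fold change -0.46, SE 0.12, 95% confidence interval -0.71 to -0.22, edgeR adjusted p = 0.0047).

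Gsto1 (ENSMUSG00000025068.7, chr19:47854970-47864790, plus strand) encodes the omega-class enzyme, which removes glutathione from proteins and reduces dehydroascorbate rather than chiefly forming conjugates. Gsto1 was 371, 377 and 321 CPM in DMSO and 326, 362 and 279 CPM in erastin libraries. The groups overlapped, and the log2 fold change of -0.15 (SE 0.094, 95% confidence interval -0.35 to 0.056, edgeR adjusted p = 0.235) did not pass. Gstk1 (ENSMUSG00000029864.5, chr6:42245935-42250447, plus strand), the kappa-class gene, was 6.20, 3.33 and 3.97 CPM in DMSO and 6.56, 6.53 and 5.39 CPM in erastin libraries. DMSO replicate 1 lay among the erastin libraries, and the log2 fold change of 0.46 (95% confidence interval -0.17 to 1.09, edgeR adjusted p = 0.227) did not pass. It was 0.76 without DMSO replicate 1 (edgeR adjusted p = 0.0726) and 0.28 without DMSO replicate 2 (edgeR adjusted p = 0.532).

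The erastin and DMSO libraries did not overlap in 7 of the 10 genes, with Gsta4 above, and Gstm2, Gstm5, Gstp1, Gstt1, Gstt3 and Mgst1 below. Such a separation was seen in 52.5% of all genes tested, 26.7% above and 25.8% below.

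**Figure D2:**
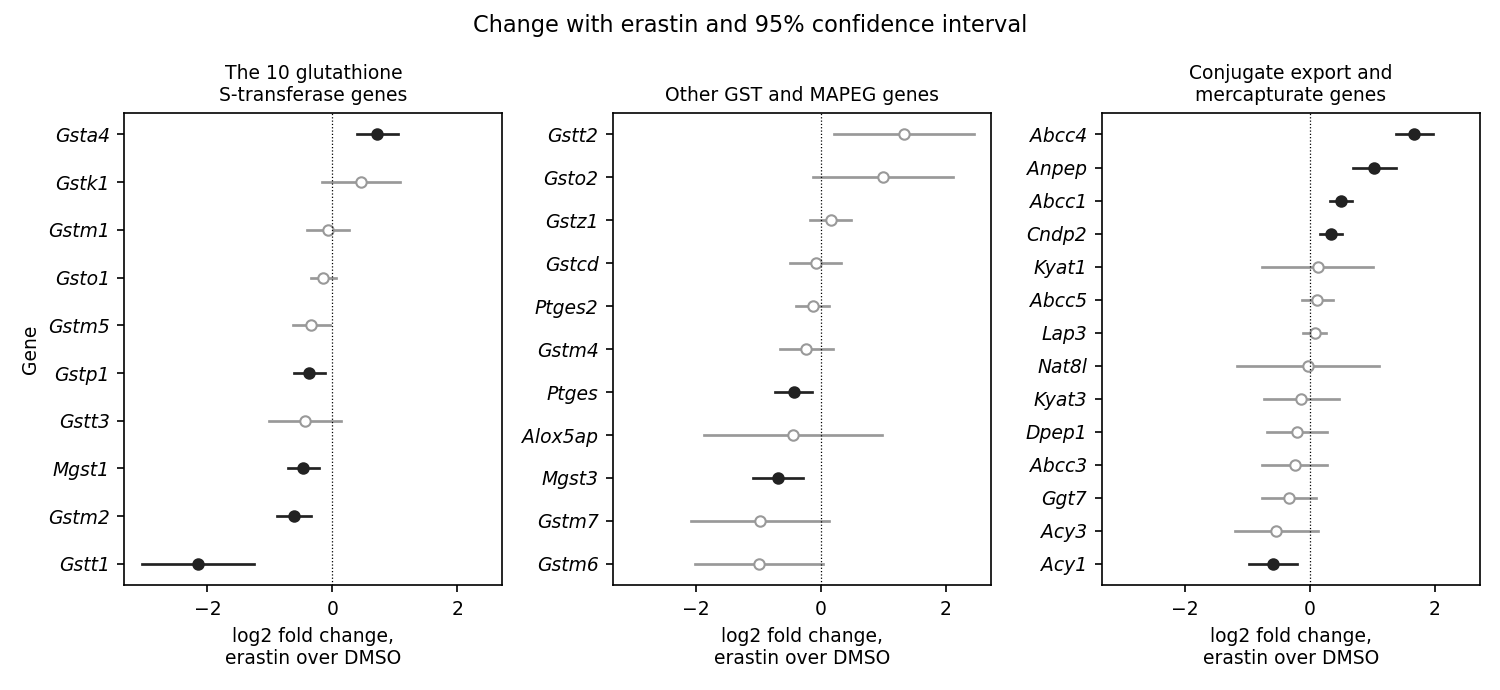
Log2 fold change of erastin over DMSO with its 95% confidence interval. Panels hold the 10 transferase genes, 11 other transferase and MAPEG genes, and 14 genes of conjugate export and mercapturate formation or breakdown. Filled points passed an adjusted p-value of 0.05. Gstt1 at -2.16 and Abcc4 at 1.68 are the extremes among the genes that passed.

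To set the genes against each other, levels were divided by the length of each gene's merged exons. On this scale Gsto1 was first in both groups, with 176 ± 15.1 CPM per kb under DMSO and 159 ± 20.7 CPM per kb under erastin (SD, n = 3 each). Gsto1 made up 59.8% ± 2.2 and 60.4% ± 3.06 of the summed level of the 10 genes (SD, n = 3 each), which was 294 ± 15.1 and 263 ± 21.4 CPM per kb. In DMSO libraries the order of levels per kb went on with Gstp1 (23.6), Gstm5 (21.4), Gstm2 (19.5), Mgst1 (16.4), Gstm1 (15.5), Gsta4 (13.7), Gstt1 (3.09), Gstk1 (3.06) and Gstt3 (1.91). Neighbours in that order overlapped over the libraries, except Gsto1 and Gstp1, Gstm2 and Mgst1, Gsta4 and Gstt1, and Gstk1 and Gstt3.

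In erastin libraries Gsta4 held second place at 22.5 CPM per kb, followed by Gstp1 (18.3), Gstm5 (17.0), Gstm1 (14.7), Gstm2 (12.8), Mgst1 (11.9), Gstk1 (4.19), Gstt3 (1.41) and Gstt1 (0.688). The genes from Gsta4 to Mgst1 each overlapped with the next. Gsta4 thus stood at rank 7 in DMSO and 2 in erastin libraries; with the longest transcript as the length, a choice made after the data were seen, its ranks were 6 and 3, behind Gsto1 and Gstp1. Its share of the summed level per kb was 4.67% ± 0.667 in DMSO and 8.69% ± 2.28 with erastin, and that of Gstt1 was 1.06% ± 0.33 and 0.26% ± 0.0426 (SD over 3 libraries).

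**Figure D3:**
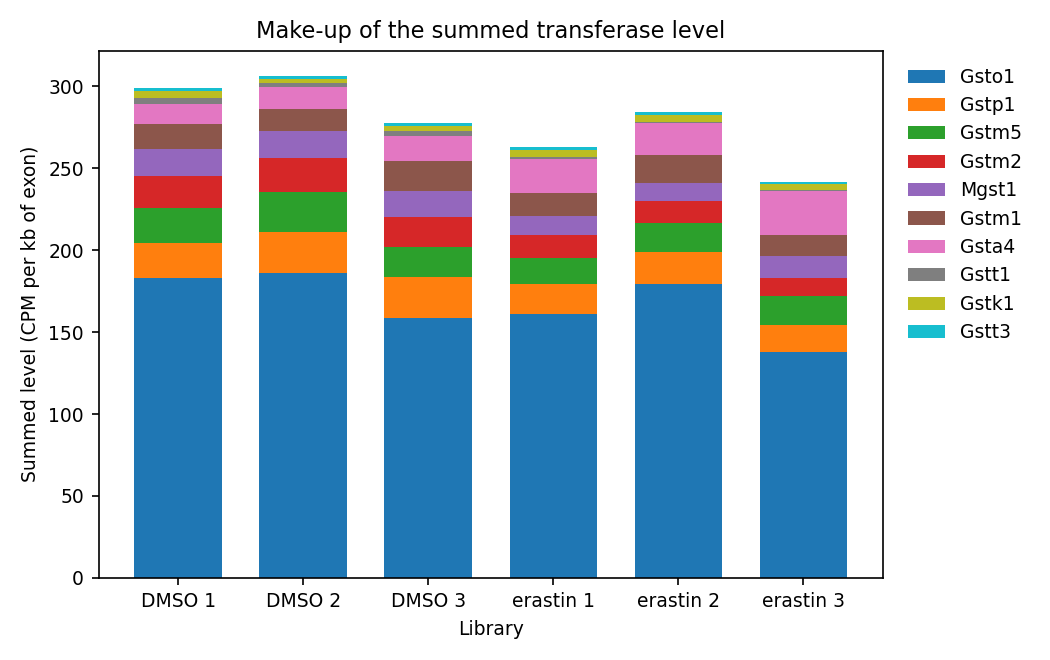
Summed level of the 10 transferase genes in CPM per kb of exon, 1 bar per library, split by gene. Gsto1 fills 57.0% to 63.0% of every bar, and the Gsta4 segment is larger in each erastin library than in each DMSO library.

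Several members share sequence with other genes, which bears on how reads were assigned. Of the 50-base windows of the longest Gstp1 transcript, 62.3% also occurred in transcripts of another gene, all of them in Gstp2 and many in the pseudogene Gstp-ps. Gstp2 had at most 4 reads in any library and Gstp-ps 55 to 82. For Gstm1 the share was 23.1%, for Gstm2 9.36% and for Gstt3 3.2%, and for Gsta4, Gstm5, Gstt1, Gsto1, Gstk1 and Mgst1 it was 0. The Gstm1 windows were shared most often with the pseudogene Gstm2-ps1 (215 windows), with Gstm3 (124 windows) and with Gm8834 (89 windows). Gstm3 had 0 reads in every library. Gstm2-ps1 and Gm8834 were not found by symbol among the counted genes, so their reads could not be examined. Gm6665, which shares 39 windows with Gstm2, had 7, 5 and 4 reads in DMSO and 14, 17 and 10 in erastin libraries, far fewer than Gstm2. The antisense gene 4933431E20Rik overlaps 178 of the 1278 exon bases of Gstm5, and without a stated strand setting their reads cannot be told apart. It had 67, 140 and 68 reads in DMSO and 166, 131 and 178 in erastin libraries (log2 fold change 0.44, edgeR adjusted p = 0.159). Gm20441, a protein-coding gene on the same strand as Gstt3, overlaps 524 of its 3842 exon bases and had 0 reads in every library. How reads in that stretch were counted is not known.

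Since transferase genes are known for AREs, the RefSeq promoter windows (GRCm38.p6, 250 bases before to 50 after each start) were searched on both strands for the ARE core TGACNNNGC and its variant TGAGNNNGC, which cannot match at the same place on the same strand. Windows were found for 9 of the 10 genes, all but Gsta4, 12 windows in all. One or the other form was present in 4 of these 9 genes, against 30.8% of all genes with a window and 27.8% of all windows. The matches are shown because they lie in Gstm5, Gstp1, Gstt1 and Mgst1, of which the last 3 fell. Sequences read 5′ to 3′ on the gene's strand with the match in capitals. Positions count back from -1, the last base before the RefSeq start. In these 4 genes that start differs from the GENCODE start given above. The Gstt1 and Mgst1 stretches and the Gstp1 stretch at -9 to -1 lie inside the GENCODE gene. The Gstm5 stretch at -42 to -34 and the Gstp1 stretch at -74 to -66 cross its start. Mgst1 has 2 windows, and only 1 of them holds a match.
Gstm5, chr3:107895802-107895830, plus strand, TGACNNNGC at -42 to -34: caccgcccacTGACCACGCggagggcggg
Gstm5, chr3:107895648-107895676, plus strand, TGAGNNNGC read on the opposite strand at -196 to -188: agttttatgtGCCAGCTCAactgtgcaac
Gstp1, chr19:4037968-4037996, minus strand, TGAGNNNGC at -74 to -66: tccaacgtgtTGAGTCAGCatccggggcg
Gstp1, chr19:4037913-4037931, minus strand, TGAGNNNGC read on the opposite strand at -9 to -1: gcctacgcgtGCGTCCTCA
Gstt1, chr10:75797802-75797830, minus strand, TGAGNNNGC at -89 to -81: tgctggccgcTGAGAGAGCcctgcgctct
Mgst1, chr6:138140461-138140489, plus strand, TGACNNNGC read on the opposite strand at -56 to -48: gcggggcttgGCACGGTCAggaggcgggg
These are letter matches and not shown to be bound sites. The windows of Gstm1, Gstm2, Gstt3, Gsto1 and Gstk1 held neither form, and none of the 12 windows held TTNCATCA, a form of the C/EBP-ATF composite element, which 4.51% of all genes with a window had.

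A list of 22 other transferase and MAPEG genes was examined beside the 10. Of these, 21 were in the table and 11 passed the count filter; edgeR called 0 of the 11 higher and 2 lower, 18.2% against 43.1% of all genes tested (21.6% higher and 21.5% lower). At an unadjusted p under 0.05 the counts were 1 and 2, and DESeq2 called 1 higher, Gstt2. The median log2 fold change was -0.23. Mgst3, a MAPEG enzyme related to Mgst1, was 19.3, 16.6 and 13.8 CPM in DMSO and 11.9, 10.2 and 8.66 CPM in erastin libraries, with no overlap (log2 fold change -0.69, SE 0.19, edgeR adjusted p = 0.00819). Ptges, the MAPEG enzyme that makes prostaglandin E2, fell from 32.5 ± 2.71 to 24.0 ± 4.03 CPM (SD, n = 3 each; log2 fold change -0.43, SE 0.14, edgeR adjusted p = 0.0203), but not past the threshold without DMSO replicate 1 (edgeR adjusted p = 0.0825) or erastin replicate 3 (edgeR adjusted p = 0.0809). Among genes named after their values were seen, Gstm4, Gstm6 and Gstm7 of the mu cluster had log2 fold changes of -0.23, -0.995 and -0.98, none of which passed, and Gstz1, an enzyme of tyrosine breakdown, had 0.15.

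Conjugates leave the cell through ABCC pumps and are then trimmed by peptidases and acetylated. A list of 22 genes covered these steps and the breakdown of their products. Of the listed genes 15 passed the count filter, and 5 rose and 1 fell, 40.0% against 43.1% of all genes tested. Their median log2 fold change was 0.079. Abcc4, a pump for organic anions and glutathione conjugates, was 20.1, 15.9 and 13.2 CPM in DMSO and 50.8, 55.9 and 50.2 CPM in erastin libraries (log2 fold change 1.68, SE 0.14, edgeR adjusted p = 2.79e-07). Abcc1, the classical conjugate pump, rose from 138 ± 10.6 to 196 ± 11.8 CPM (SD, n = 3 each; log2 fold change 0.50, SE 0.082, edgeR adjusted p = 0.000166). Their relatives Abcc3 and Abcc5, named after their values were seen, had log2 fold changes of -0.24 and 0.12 and did not pass.

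Anpep, an aminopeptidase that can split cysteinylglycine, was 23.0, 29.5 and 26.9 CPM in DMSO and 62.8, 61.5 and 38.8 CPM in erastin libraries (log2 fold change 1.03, SE 0.16, edgeR adjusted p = 0.000123). Another peptidase gene, Cndp2, named here after its values were seen, also rose, with a log2 fold change of 0.34 (edgeR adjusted p = 0.00446). The peptidase genes Dpep1 and Lap3, also named after their values were seen, had log2 fold changes of -0.20 and 0.079 and did not pass. Acy1, an aminoacylase that removes acetyl groups from amino acids, fell from 14.8 ± 0.605 to 9.87 ± 1.74 CPM (SD, n = 3 each; log2 fold change -0.58, SE 0.18, edgeR adjusted p = 0.0174). This call was lost, with edgeR adjusted p-values of 0.0549 without DMSO replicate 2, 0.0643 without erastin replicate 2 and 0.0565 without erastin replicate 3. Ggt1 and Ggt6, which encode gamma-glutamyl enzymes acting on conjugates outside the cell and were also named after their values were seen, had at most 4 reads in any library, so a change in them was not detectable at this depth.

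**Figure D4:**
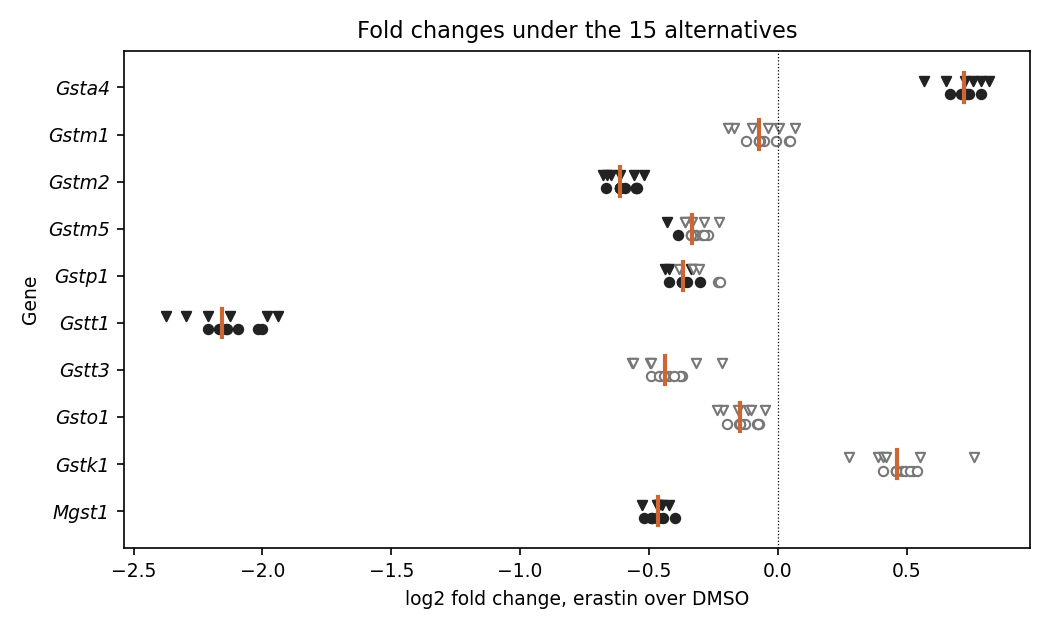
Log2 fold change of each transferase gene in the reported fit (orange line), in the 6 fits without 1 library (triangles) and in 9 other alternatives (circles); filled symbols passed an adjusted p-value of 0.05. Gsta4, Gstm2, Gstt1 and Mgst1 passed in all 15, Gstp1 in 10, and Gstm1 lies on both sides of 0.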

How the data were processed

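The authors deposited raw read counts per gene for 6 libraries; per the labels' protocols, total RNA was freed of ribosomal RNA, and size-selected libraries were sequenced on an Ion Proton. Per the submitters' processing notes, HTSeq 0.9.1, SAMtools and the build mm10 were used; aligner, annotation release, strand setting and handling of reads matching several genes are not given in the sources used here. Columns were matched to libraries by the sample numbers in the labels, and groups were taken from titles. Identifiers were matched without version to GENCODE M21 (42462 of 43346, 98%), which gave symbols, coordinates (GRCm38, the same assembly as mm10) and lengths.

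Counts were tested with edgeR 4.0.16 in R 4.3.3: filterByExpr (minimum count 10 scaled by library size, in 3 libraries, total 15; 14000 genes kept), TMM factors, glmQLFit and glmQLFTest on treatment alone, with Benjamini-Hochberg adjustment over all 14000 genes and a threshold of 0.05. CPM uses TMM-scaled totals of the genes kept. The fitting was tested on simulated data with the same spread for all genes and few changed genes. That simulation does not test scaling where many genes shift, as in these data. Intervals use 95% t quantiles. The alternatives were other scalings, other filters, a replicate block, DESeq2 1.42.0, a GC and length offset (mgcv 1.9.3), and leaving out each library with the same 14000 genes. Libraries of a group differed beyond sampling noise (chi-square of 11.0 to 19.2 per degree of freedom), so none was the same library deposited again; this does not show that they came from separate cultures. Named were the 10 genes and, from each list, at most 3 higher and 3 lower genes with the smallest p among those passing; any other gene given values is said to be named after its values were seen or is a cell type marker or a gene that shares sequence or exons with the 10. The values of 1 gene of the conjugate list, counted among those that rose, are not reported here. The 10 genes and the lists were chosen with earlier results of these data known.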

Additional observations from a re-analysis of the deposited data

How the results depend on the processing

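Of 240 single-gene values (16 named genes under 15 alternatives), 223 kept their direction and side of the threshold. Gstm1 turned to 0.042 with the GC and length offset and 0.046 with that offset and the replicate block, and ran from -0.19 to 0.065 without 1 library. Gstm5 passed with upper-quartile factors (-0.39) and ran from -0.43 to -0.23 without 1 library. Gstp1 lost its call with the offset (-0.23) and with the offset and block (-0.22), and ran from -0.44 to -0.31 without 1 library. Without 1 library Gstk1 ran from 0.28 to 0.76, Gstt3 from -0.57 (erastin replicate 1) to -0.22 (erastin replicate 3) and Gsto1 from -0.24 (erastin replicate 2) to -0.050 (erastin replicate 3), none of them passing. The cause was not tested. The number of the 10 genes called higher was 1 in every alternative, and the number lower ran from 3 to 5.

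Among the other transferase and MAPEG genes, 1 in place of 0 was higher with total count only, the 1 CPM filter, the replicate block, DESeq2, and the offset with and without block, each time Gstt2; with no filter 2 were, Gstt2 and Gsta1. Total count only left 1 of 2 lower, and with no filter 3 were, by the addition of Mgst2 (-5.32, edgeR adjusted p = 0.039). Mgst2, named after its values were seen, had 4, 10 and 0 reads in DMSO and 0 in each erastin library. Its fold change thus rests on very few reads. Without 1 library 0 to 1 of the other transferase and MAPEG genes were higher and 1 to 2 lower. Of the conjugate genes, 2 in place of 1 were lower with no filter, by the addition of Ggt5, and 0 to 2 without 1 library. Ggt5, also named after its values were seen, had 8, 10 and 55 reads in DMSO and 9, 0 and 2 in erastin libraries.

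Deviations from the group means correlated at -0.0047 to 0.033 across genes for equally numbered libraries. For unequally numbered libraries the correlations ran from -0.036 to 0.028. Deviations from a mean of so few libraries constrain each other, so this cannot decide whether equal numbers mark paired cultures. With the replicate block 1 of the 10 genes was higher and 4 lower, and 5882 genes passed in place of 6028. Genes higher made up 50.2% of those passing with TMM, 44.0% with upper-quartile factors and 57.1% with total count only. Depth limits the genes with few reads, such as Gsta1 and, with erastin, Gstt1 at 15 to 24 reads.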
